A study of Mus musculus with 8 samples.

Results

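Complement and coagulation genes were examined in the livers of mice that lack Mc1r, the melanocortin 1 receptor gene, in hepatocytes (Mc1r LKO) and of their controls. The set holds 44 genes named by symbol, with the serpin genes and the A and B chains of C1q left out, and all 44 were found among the 55487 genes listed for each mouse. Liver RNA was sequenced from 4 mice per genotype, numbered 154, 159, 181 and 193 among the controls and 141, 156, 157 and 182 among the Mc1r LKO mice. Control mice were age-matched Mc1r fl/fl animals, in which the Mc1r gene is flanked by loxP sites and intact. Mc1r LKO mice carried Mc1r fl/fl together with Alb Cre/+, a Cre recombinase driven by the albumin promoter, so that deletion is aimed at hepatocytes and other liver cells keep the gene. All mice were male and ate the Western diet from 8 to 20 weeks of age, for 12 weeks.

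Complement and coagulation are cascades of plasma proteins, most of them made by hepatocytes and secreted as inactive precursors. In complement, C1q, mannose-binding lectins or spontaneous turnover of C3 start a chain of proteases that cleaves C3 and ends with the membrane attack complex, built from C6, C8, C9 and their partners. In coagulation, vitamin K-dependent proteases convert prothrombin to thrombin, thrombin turns fibrinogen into fibrin, and plasmin dissolves it. Fibrinogen, C3 and C9 are acute phase proteins, and some parts of both systems come from macrophages (C1q, properdin) or endothelium (thrombomodulin, tissue factor pathway inhibitor).

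Between 10773151 and 24763375 read pairs were counted on genes per mouse, and the 44 genes took between 2.36% and 3.57% of them. The knockout target Mc1r had 0 counts in all 8 mice, which allows up to 3 counts, or 0.121 to 0.278 CPM (counts scaled by library size) by counting error alone, so the genotypes could not be checked against it. Hepatocyte markers were abundant in every mouse (6 genes found of 7, summed level 73035 to 103512 CPM). Summed neutrophil, platelet, cholangiocyte and lymphocyte markers stayed at or under 7.03, 4.93, 16.5 and 5.49 CPM in each mouse. A list of 5 glucocorticoid-induced genes, picked because earlier results of these data found them to differ, had 4 called higher in Mc1r LKO mice, a count that this choice fixed. LKO mouse 182 and control mouse 154 stood apart in the genes studied here, and values without mouse 182 are given where leaving it out moved a log2 fold change by more than 0.1.

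To see the order of the levels, CPM with TMM factors, which correct library sizes for composition, was divided by exon length in kilobases. That length counts all annotated exon bases of a gene, so the order depends on the annotation. The median over the 8 mice ran from 1089 CPM per kilobase for Fgg, the fibrinogen gamma chain, to 0.689 for C5ar1, the receptor for the C5a fragment. After Fgg came Fga at 1055, Vtn at 751, Fgb at 718, C3 at 547, Kng1 at 506, Plg at 443, Clu at 438, F2 at 315 and F12 at 252 CPM per kilobase. The lowest levels belonged to cell surface and endothelial proteins, with Cd55 at 2.85, Tfpi at 1.33, Thbd at 1.19, C3ar1 at 0.737 and C5ar1 last. Neighbours in this order were mostly not apart, since the ranges over mice were separate in 4 of 43 neighbouring pairs (Clu over F2, F2 over F12, C2 over Cd55 and Cd55 over Tfpi). The levels of Cfb, C2 and Klkb1 are uncertain, because 79.5%, 42.8% and 43.2% of their exon bases are shared with another annotated gene on the same strand. C4b, C1ra, C1s1, Kng1 and Cd55 have close paralogs in the mouse genome, between which reads may be split.

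**Figure D1:**
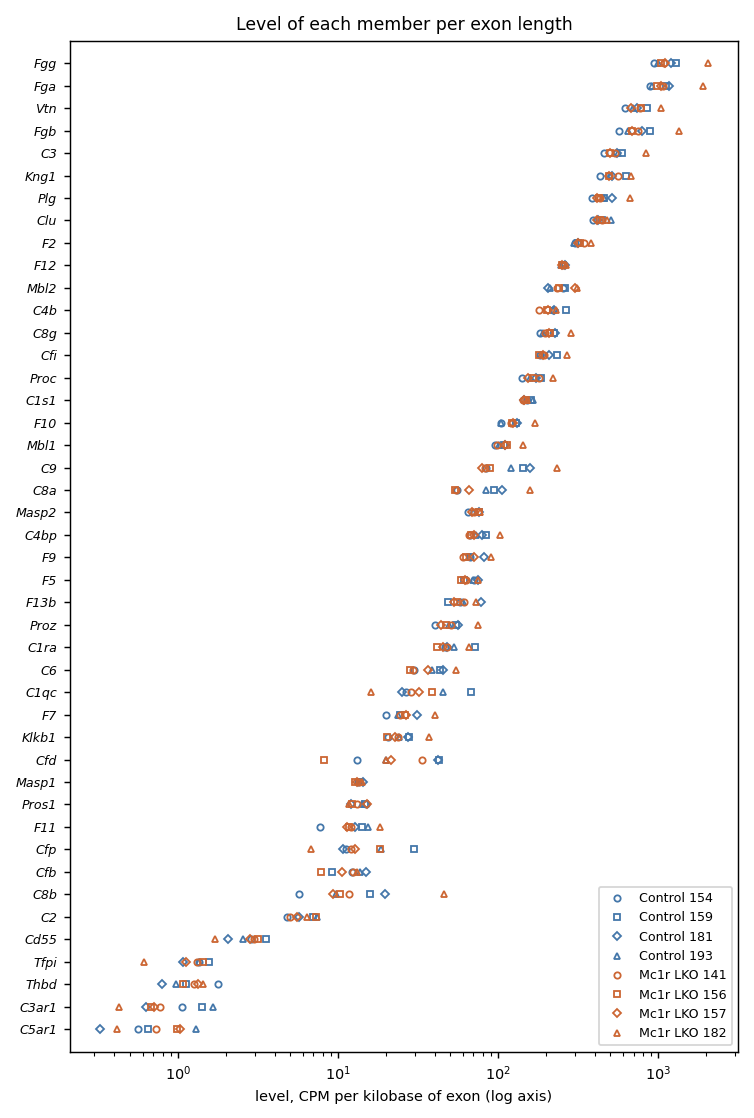
Level of each of the 44 genes in each of the 8 mice (points, shape for mouse and colour for genotype) in CPM per kilobase of exon on a log axis, ordered by the median over mice. Levels ran from 1089 for Fgg to 0.689 for C5ar1, and the triangle of LKO mouse 182 was the highest point in 26 genes.

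The genotypes were then compared with edgeR's quasi-likelihood test over the 13400 genes kept by the filter on low counts, all 44 members among them. A gene was called at an unadjusted p under 0.05 where its log2 fold change was also 0.25 or more in size. By this rule 1 of 44 members was called (2.27%), against 711 of 13400 genes tested (5.31%). The called gene was C3ar1, which was lower in Mc1r LKO mice, and 2.66% of all genes tested were called lower. Without the fold limit the count was also 1, against a background of 6.72%. After Benjamini-Hochberg adjustment 0 members passed, as did 0% of all genes, and DESeq2 and limma-voom also gave 0 members, with 17 genes in all passing in DESeq2. The smallest adjusted p among members was 0.734.

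In 0 of 44 genes did the 4 Mc1r LKO mice lie all above or all below the 4 control mice, a separation that 4.16% of all genes tested showed. The log2 fold change (Mc1r LKO over control) was positive in 26 members and negative in 18, with a median of 0.032, beside -0.011 over all genes tested. Without normalization beyond library size the split turned to 20 positive and 24 negative, and the share of all called genes that were higher moved from 49.8% to 25.3%. The 95% interval of the log2 fold change lay within 1 of 0 in 38 of 44 members and within 0.5 in 22, against 10643 and 6570 of 13400 genes. At this precision a log2 change of more than 1 fell outside the interval for most members, whereas in the other 22 a log2 change of 0.5 was within it.

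**Figure D2:**
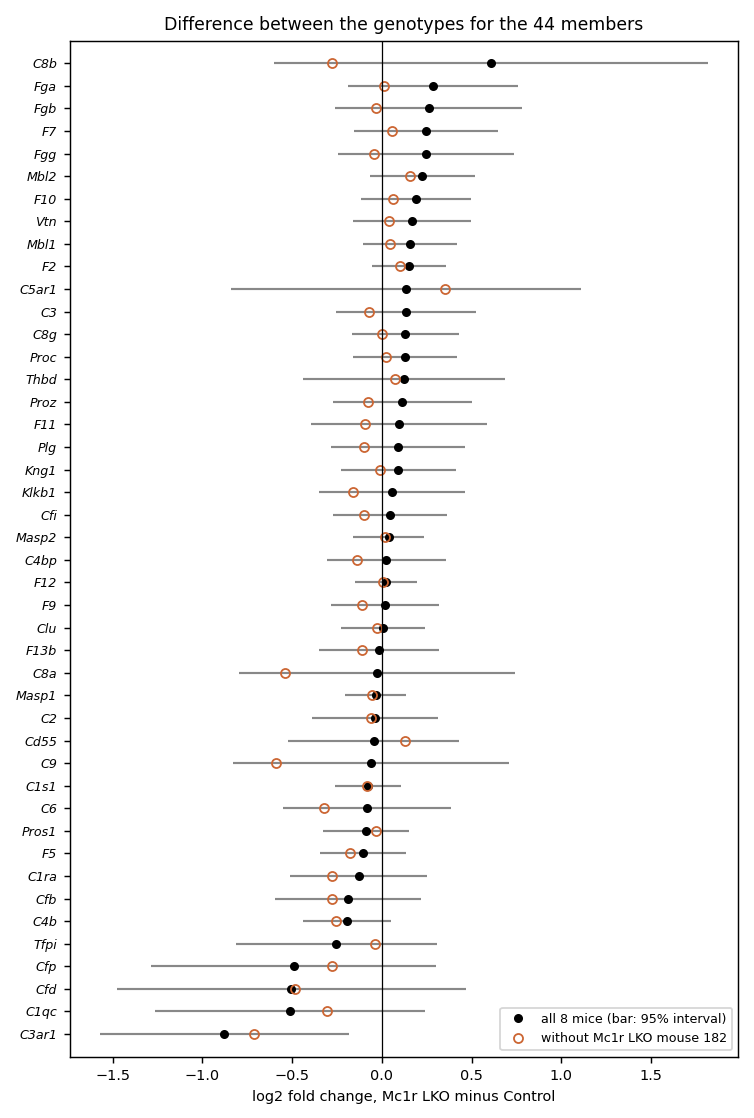
Log2 fold change (Mc1r LKO minus control) of each member from edgeR with all 8 mice (black points with 95% intervals) and without LKO mouse 182 (open circles). The interval of 1 member, C3ar1, excluded 0, and leaving out mouse 182 moved C8b from 0.61 to -0.28.

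C3ar1 (ENSMUSG00000040552, chromosome 6 of GRCm38, 122847138 to 122856161) encodes the receptor for the C3a fragment, which is carried mainly by myeloid cells. In the order of mouse numbers given above, which is kept for all values per mouse, C3ar1 measured 4.52, 6.04, 2.71 and 7.13 CPM in control mice and 3.32, 2.92, 3.03 and 1.84 CPM in Mc1r LKO mice. Control mouse 181 lay below 3 of the 4 Mc1r LKO mice, so the groups overlapped. The means were 5.10 ± 1.92 CPM in control mice and 2.78 ± 0.647 CPM in Mc1r LKO mice (SD, n = 4 each), a log2 fold change of -0.88 ± 0.31 (SE, 95% interval -1.57 to -0.18), adjusted p = 0.734, and the unadjusted p was under 0.05. Leaving out each mouse in turn moved the log2 fold change between -1.09 and -0.65, and without control mouse 193 the unadjusted p no longer passed. The other receptor gene, C5ar1, measured 1.82 ± 1.07 CPM in control mice and 2.02 ± 0.719 CPM in Mc1r LKO mice (SD, n = 4 each), with a log2 fold change of 0.14 (adjusted p = 0.973), or 0.35 without mouse 182. Its counts were low, from 16 to 82 per mouse.

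C1qc, C3ar1 and Cfp were set beside 8 markers of Kupffer cells, the resident macrophages of the liver. C1qc encodes the C chain of C1q, the recognition unit of the classical pathway, and measured 51.5, 131, 48.6 and 86.9 CPM in control mice and 55.0, 74.9, 61.4 and 30.8 CPM in Mc1r LKO mice. Cfp encodes properdin, the stabilizer of the alternative pathway convertase, and measured 19.3, 51.8, 18.7 and 32.3 CPM in control mice and 20.9, 31.6, 22.0 and 11.8 CPM in Mc1r LKO mice. In both genes control mouse 159 was the highest of the 8 and LKO mouse 182 the lowest. Log2 fold changes were -0.51 (adjusted p = 0.843) for C1qc and -0.49 (adjusted p = 0.858) for Cfp, and neither passed. Without control mouse 159 they were -0.16 and -0.12, and without LKO mouse 182 they were -0.31 and -0.28.

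The summed level of the 8 Kupffer cell markers ran from 272.5 to 642 CPM in control mice and from 190.4 to 395 CPM in Mc1r LKO mice, with mouse 159 again highest and mouse 182 lowest. All 8 markers had a negative log2 fold change, and 1 of them, Csf1r, the receptor of macrophage colony-stimulating factor, was called, with -0.77. The part of these markers in the values of C3ar1, C1qc and Cfp was not tested. In whole liver, fewer cells of a type and less RNA per cell cannot be told apart. C5ar1 was highest in control mouse 193, and mouse 159, at 1.67 CPM, was below 4 other mice.

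**Figure D3:**
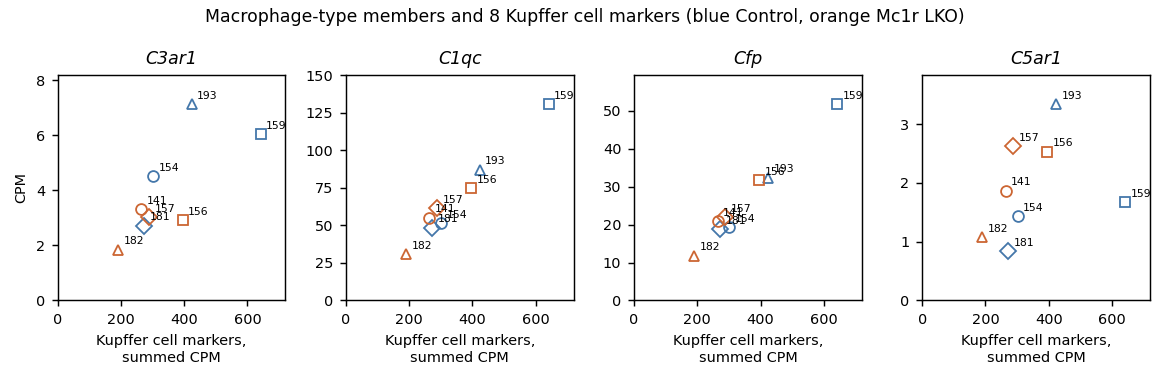
Level of C3ar1, C1qc, Cfp and C5ar1 (CPM, vertical axes) in each mouse against the summed CPM of 8 Kupffer cell markers (horizontal axes), with mouse numbers beside the points. Mouse 159 is highest and mouse 182 lowest in C1qc, in Cfp and in the markers, while in C3ar1 and C5ar1 mouse 193 is highest.

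The other genes of the lectin and classical start gave no call, and over all 9 genes of that step 3 log2 fold changes were positive and 6 negative. Mbl2 and Mbl1 encode mannose-binding lectins, which recognize microbial sugars. Mbl2 measured 253 ± 32.5 CPM in control mice and 296 ± 44.7 CPM in Mc1r LKO mice (SD, n = 4 each), with a log2 fold change of 0.23 (adjusted p = 0.806). Mbl1 measured 163 ± 10.5 CPM in control mice and 182 ± 29.3 CPM in Mc1r LKO mice (SD, n = 4 each), with a log2 fold change of 0.16 (adjusted p = 0.862), or 0.046 without mouse 182. Their proteases Masp1 and Masp2 varied little, and the fold changes were -0.035 and 0.038 on the log2 scale. C1ra and C1s1, the proteases bound to C1q, gave -0.13 and -0.077, and C2, the next protease, gave -0.036. Without mouse 182 C1ra gave -0.28. C4b, whose product is cleaved to tag surfaces, measured 1259.9, 1513, 1277 and 1247 CPM in control mice and 1021, 1143, 1158 and 1313 CPM in Mc1r LKO mice. Of the Mc1r LKO mice, only mouse 182 was above any control mouse, and it was above all of them but mouse 159. The log2 fold change was -0.19 ± 0.11 (SE), adjusted p = 0.799. Without mouse 182 the C4b groups no longer overlapped, and the log2 fold change was -0.25 (adjusted p = 0.601).

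C3, the central component on which the pathways meet, measured 2344, 3047, 2855 and 2874 CPM in control mice and 2773, 2572, 2563 and 4292 CPM in Mc1r LKO mice. LKO mouse 182 was highest, and the other 3 Mc1r LKO mice lay within the range of the control mice (log2 fold change 0.13 ± 0.18 (SE), adjusted p = 0.921). Without mouse 182 the log2 fold change of C3 was -0.072. Factor B, the protease of the alternative convertase encoded by Cfb, measured 35.2 ± 6.95 CPM in control mice and 31.0 ± 6.72 CPM in Mc1r LKO mice (SD, n = 4 each), with a log2 fold change of -0.19 (adjusted p = 0.898). Cfd encodes factor D (adipsin), which activates factor B and is known as an adipocyte product, and measured 12.1, 39.4, 38.6 and 18.5 CPM in control mice and 30.6, 7.47, 19.6 and 18.4 CPM in Mc1r LKO mice. The highest and the lowest values lay in different genotypes, and the groups overlapped (log2 fold change -0.50, adjusted p = 0.884). Of the adipocyte markers Adipoq, Lep, Retn and Plin1 were at or near 0, each at or under 0.365 CPM in each mouse. The others were higher, with Fabp4 at 8.94 to 31.7 CPM, Lipe at 8.74 to 24.1 CPM and Cidea at 0.409 to 94.7 CPM. Of the adipocyte list 3 of 7 genes were tested and 0 were called. All 3 log2 fold changes were negative, with -0.0037 for Fabp4, -0.42 for Lipe and -1.73 for Cidea. The summed level of the list, nearly all of it from Fabp4, Lipe and Cidea, was 41.6 to 143 CPM in control mice and 18.2 to 66.3 CPM in Mc1r LKO mice. The part of these markers in the values of Cfd was not tested.

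In the terminal and fibrinogen genes LKO mouse 182 was the highest of the 8. Both groups are made in hepatocytes and hold neighbouring genes. Promoters are shown here for Fga, Fgb, Fgg, C8a, C8b and C9, and not for the terminal genes C6 and C8g. Fgg, Fga and Fgb lie side by side on chromosome 3 of GRCm38, between 83007724 and 83049863. C8b and C8a are neighbours on chromosome 4, between 104766317 and 104876398, on opposite strands, and C9 lies on chromosome 15, from 6445327 to 6498751. The 120 bases before the start of each gene in the count tables, from RefSeq promoter records on GRCm38.p6, are written 5′ to 3′ on the strand of the gene, and capitals mark matches to GTTAAT (an HNF1 half-site), TTGCNNAA (C/EBP) or TTCNNNGAA (STAT) on either strand, where a base may serve more than one motif. HNF1 and C/EBP are transcription factors of hepatocytes, and C/EBP and STAT factors act in the acute phase response.
Fgg (chr3:83007604-83007723, + strand): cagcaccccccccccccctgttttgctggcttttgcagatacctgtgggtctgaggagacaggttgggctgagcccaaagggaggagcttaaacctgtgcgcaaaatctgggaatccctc
Fga (chr3:83025956-83026075, + strand): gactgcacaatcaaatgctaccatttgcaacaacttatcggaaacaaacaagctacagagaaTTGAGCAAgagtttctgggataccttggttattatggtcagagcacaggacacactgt
Fgb (chr3:83049864-83049983, - strand): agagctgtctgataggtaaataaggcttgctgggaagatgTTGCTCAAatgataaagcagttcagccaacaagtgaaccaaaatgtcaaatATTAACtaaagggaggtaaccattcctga
C8b (chr4:104766197-104766316, + strand): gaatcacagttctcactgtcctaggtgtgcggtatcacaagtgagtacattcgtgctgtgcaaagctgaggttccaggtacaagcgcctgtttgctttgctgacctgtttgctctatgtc
C8a (chr4:104876399-104876518, - strand): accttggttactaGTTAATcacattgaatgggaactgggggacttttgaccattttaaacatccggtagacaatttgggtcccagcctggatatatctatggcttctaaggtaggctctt
C9 (chr15:6445207-6445326, + strand): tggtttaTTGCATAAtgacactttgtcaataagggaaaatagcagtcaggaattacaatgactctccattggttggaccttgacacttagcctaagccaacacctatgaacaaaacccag

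A C/EBP match thus stands before Fga, Fgb and C9 and an HNF1 half-site before Fgb and C8a. The windows of Fgg and C8b hold no match to these letters. Which genes show a match depends on the window, which ends 77 bases before the RefSeq start for Fga and 19 bases before it for C9. Promoter records, from 250 bases before to 50 after the start, were found for 34 of the 44 members and for 20542 genes in all. The half-site GTTAAT was in 12 of the 34 (35.3%) and in 6.52% of all promoters. Among these 12 were Fga and C8b, whose half-site lies outside the windows shown. TTGCNNAA was in 9 (26.5%, against 10.3%) and TTCNNNGAA in 8 (23.5%, against 8.08%). CAAAGT, a core of HNF4 sites, was in 6 (17.6%, against 13.6%), and ACANNNTGT, the spacing of a glucocorticoid receptor site, in 5 (14.7%, against 6.17%). Fga and Fgb held 4 of these 5 motifs, all but CAAAGT, within their whole records. The records of C6 and C8g, whose windows are not shown, held none of these motifs. These are matches of letters, and no binding was measured.

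Fibrinogen is built from the chains of Fga, Fgb and Fgg, whose levels followed each other from mouse to mouse. Fga measured 2683, 3387, 3525 and 2739.5 CPM in control mice and 3208, 2945, 3143 and 5744 CPM in Mc1r LKO mice. Fgb measured 2163, 3369.5, 3010.1 and 2481 CPM in control mice and 2863, 2599.5, 2608 and 5143 CPM in Mc1r LKO mice. Fgg measured 1981, 2706, 2508 and 2087 CPM in control mice and 2257, 2169, 2300.4 and 4278 CPM in Mc1r LKO mice. In all 3 genes LKO mouse 182 was far above the other 7 mice, at 1.83, 1.97 and 1.90 times their median, and control mouse 154 was lowest. The other 3 Mc1r LKO mice lay inside the range of the control mice.

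Log2 fold changes were 0.29 ± 0.21 for Fga, 0.26 ± 0.23 for Fgb and 0.25 ± 0.22 for Fgg (SE), and the adjusted p was 0.860 for Fga and 0.889 for both others. Without mouse 182 they were 0.012, -0.030 and -0.045. Despite these swings the balance of the chains was narrow. The log2 ratio of length-scaled levels was between -0.20 and -0.017 for Fga over Fgg and between -0.74 and -0.52 for Fgb over Fgg in the 8 mice. Fga was thus at a median of 0.943 times Fgg, and Fgb at 0.659 times. These ratios depend on the lengths used, which count all annotated exon bases, 3810 for Fgb and 2093 for Fgg. In CPM, not scaled by length, Fgb was above Fgg in each mouse.

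The terminal genes did not keep such a balance. C8a, C8b and C8g encode the alpha, beta and gamma chains of C8, which inserts into the membrane, and C9 polymerizes into the pore. C8b measured 14.5, 40.3, 50.0 and 24.6 CPM in control mice and 29.9, 26.2, 23.6 and 117 CPM in Mc1r LKO mice, and mouse 182 was at 4.45 times the median of the others. C8a measured 200.1, 342, 385 and 304 CPM in control mice and 198, 196, 238 and 577 CPM in Mc1r LKO mice, and C9 measured 215, 363, 402 and 307 CPM in control mice and 212, 226, 201 and 594 CPM in Mc1r LKO mice. C8g, whose level was the steadiest of the 3 chains, measured 272, 335, 337 and 285 CPM in control mice and 294, 316, 309 and 426 CPM in Mc1r LKO mice. In each of these 4 genes mouse 182 was the highest of all 8.

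The log2 ratio of length-scaled levels ran from -3.28 to -1.79 for C8b over C8a, from -5.00 to -2.64 for C8b over C8g and from -1.97 to -0.85 for C8a over C8g, so the neighbouring genes C8a and C8b did not move by the same factor between mice. Log2 fold changes between the genotypes were 0.61 (95% interval -0.60 to 1.82) for C8b, -0.025 (-0.79 to 0.74) for C8a, 0.13 (-0.17 to 0.43) for C8g and -0.061 (-0.83 to 0.71) for C9. C6, which joins the complex before C8, measured 139 ± 24.2 CPM in control mice and 132 ± 43.0 CPM in Mc1r LKO mice (SD, n = 4 each), with a log2 fold change of -0.082 (-0.55 to 0.39). No terminal gene passed. Without mouse 182 the log2 fold changes were -0.28 for C8b, 0.0016 for C8g and -0.32 for C6.

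Of the 13674 genes tested without mouse 182, 6.81% were called in either direction and 3.09% were called lower. Of the 44 members 4 were called, all lower. Beside C3ar1 (-0.72) and C4b these were C9 (-0.59 ± 0.18 SE, adjusted p = 0.574) and C8a (-0.54 ± 0.19 SE, adjusted p = 0.578). In edgeR's test on these 7 mice 0 members passed after adjustment. C9 averaged 213 ± 12.5 CPM in the 3 remaining Mc1r LKO mice (SD) against 322 ± 81.3 CPM in 4 control mice, of which mouse 154, at 215 CPM, lay among the Mc1r LKO mice. Of the 44 members 1, C4b, then separated the genotypes, against 9% of the 13400 genes kept by the filter with all mice. The sign of the set also turned, to 14 positive and 30 negative with a median of -0.065. Because mouse 182 was the highest in 26 of the 44 members, leaving it out lowers the set by that choice. Without control mouse 154 the split was 20 positive and 24 negative, with a median of -0.010. Leaving out any other single mouse gave 26 to 31 positive.

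**Figure D4:**
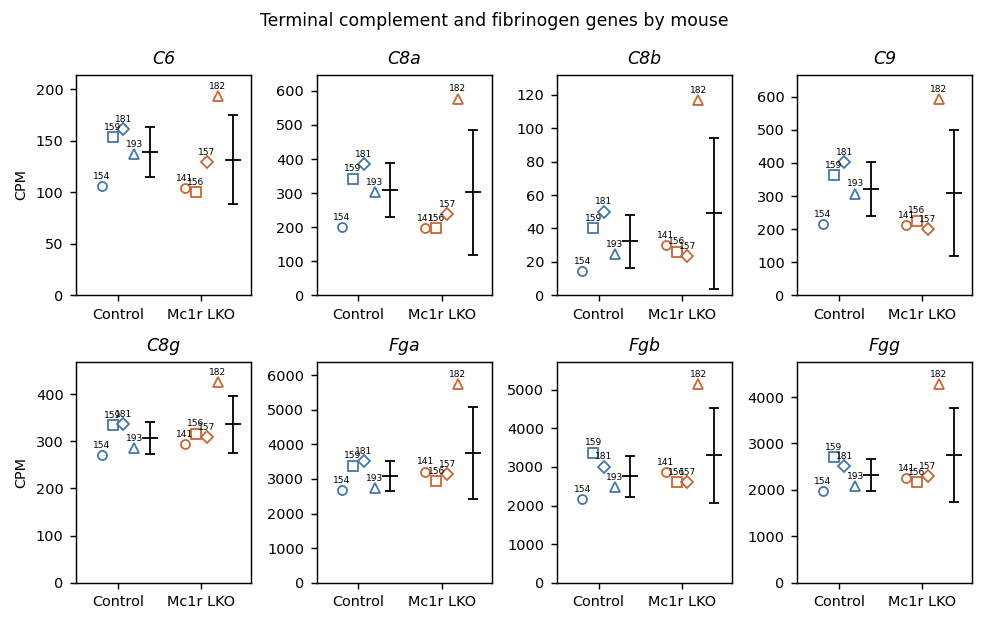
Level (CPM, axes from 0) of 5 terminal complement genes and the 3 fibrinogen genes in each mouse, with the mouse number above each point and the mean ± SD of the 4 mice per genotype beside them. LKO mouse 182 is the highest point of each panel, at 117 CPM for C8b and 5744 CPM for Fga, and the other 3 Mc1r LKO mice lie within the control range or close to its lower end.

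Over the whole set LKO mouse 182 was the highest of the 8 mice in 26 of 44 genes, whereas it was highest in 20.2% and lowest in 21.7% of all genes tested. Its median log2 ratio to the median of the other mice was 0.40 over the members and -0.0060 over all genes. Control mouse 154 was the lowest in 17 members (10.9% of all genes), with a median log2 ratio of -0.22. The members took 3.57% of the counts of mouse 182 and 2.36% to 2.93% in the other 7 mice, and fibrinogen alone took 1.38% against 0.705% to 0.945%. In mouse 182 the hepatocyte markers were at their highest sum, 103512 CPM, and the sums for Kupffer cells, sinusoidal endothelium (186.4 CPM, against 241.7 to 286.8 in the others) and stellate cells (182.9 CPM, against 200.9 to 321.5) were at their lowest. Its total count, 21491021, and its share of mitochondrial counts, 6.40%, lay within the range of the other mice, and its TMM factor was the lowest, 0.911 against 0.970 to 1.06. The part of these differences in the levels of the members was not tested.

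**Figure D5:**
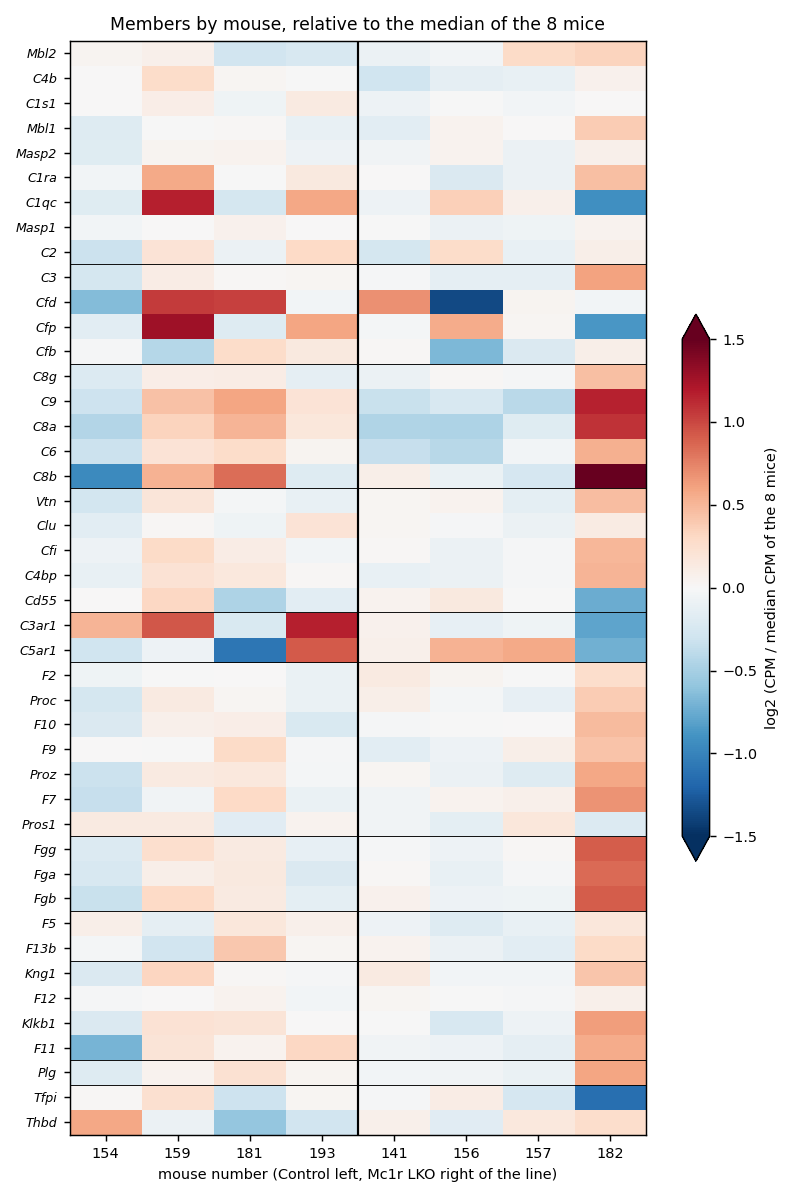
Each member (rows, grouped by role) in each mouse (columns, control left of the line) as log2 of CPM over the median of the 8 mice, with a colour scale from -1.5 to 1.5. The column of LKO mouse 182 is mostly above the median, with C1qc, Cfp, Cd55, C3ar1, C5ar1, Tfpi, Pros1 and Cfd below it, and the column of control mouse 154 is mostly below.

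No regulator of complement was called, and 4 of 5 had a positive log2 fold change with all mice, but 2 of 5 without mouse 182. Vtn encodes vitronectin, which binds the forming membrane attack complex, and measured 1256, 1726, 1489 and 1412 CPM in control mice and 1559, 1582, 1372 and 2099 CPM in Mc1r LKO mice. Clu, for clusterin, another inhibitor of that complex, measured 1344, 1526, 1443 and 1737 CPM in control mice and 1536, 1483, 1414 and 1639 CPM in Mc1r LKO mice. The log2 fold changes were 0.17 (adjusted p = 0.887) for Vtn and 0.0051 (adjusted p = 0.996) for Clu. Cfi encodes factor I, which cleaves C3b and C4b, and C4bp encodes the C4b-binding protein that assists it. Cfi measured 403, 519.6, 459 and 412 CPM in control mice and 429, 401, 421 and 598 CPM in Mc1r LKO mice. C4bp measured 445, 561, 535 and 486 CPM in control mice and 444, 455, 478 and 686 CPM in Mc1r LKO mice, and in both genes mouse 182 was above the 7 others. Their log2 fold changes were 0.044 and 0.026. Cd55, a membrane-anchored factor that speeds the decay of convertases, measured 13.4 ± 3.01 CPM in control mice and 12.9 ± 3.16 CPM in Mc1r LKO mice (SD, n = 4 each) (log2 fold change -0.046). Without mouse 182 the values were 0.038 for Vtn, -0.029 for Clu, -0.10 for Cfi, -0.14 for C4bp and 0.13 for Cd55.

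Among the vitamin K-dependent genes 6 of 7 were positive with all mice and 4 of 7 without mouse 182, and 0 were called. F2 encodes prothrombin and measured 1388, 1447, 1448 and 1356 CPM in control mice and 1584, 1491, 1445 and 1734 CPM in Mc1r LKO mice. The lowest Mc1r LKO mouse lay just under the highest control mouse (log2 fold change 0.15 ± 0.093 (SE), adjusted p = 0.835). F7, F10 and Proz lie in a row on chromosome 8 of GRCm38, between 13026034 and 13076026. F7 encodes the protease that binds tissue factor and measured 37.0, 45.4, 57.9 and 43.8 CPM in control mice and 45.3, 48.5, 49.4 and 75.1 CPM in Mc1r LKO mice, and F10, the protease that cleaves prothrombin, measured 286, 352, 356 and 283 CPM in control mice and 329, 331, 336 and 462 CPM in Mc1r LKO mice. F9, the hemophilia B gene, measured 183, 183, 223 and 180.3 CPM in control mice and 164, 173, 194 and 246 CPM in Mc1r LKO mice. In F7, F9 and F10 mouse 182 was again highest, and the log2 fold changes were 0.25 (adjusted p = 0.858), 0.017 (adjusted p = 0.990) and 0.19 (adjusted p = 0.858). The anticoagulants Proc and Pros1, for protein C and its cofactor protein S, gave 0.13 and -0.088, and Proz, for protein Z, gave 0.11. Leaving out mouse 182 brought the log2 fold changes to 0.058 for F7, -0.11 for F9, 0.060 for F10, 0.025 for Proc and -0.078 for Proz.

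F5, the cofactor of factor Xa, and F13b, the carrier subunit of the fibrin-crosslinking enzyme, gave -0.10 and -0.016. In the contact system F12, whose product starts the intrinsic pathway, was the steadiest of the 44 genes. It measured 488, 496, 513 and 481 CPM in control mice and 504, 493, 489 and 523 CPM in Mc1r LKO mice, with an SD of log2 CPM within genotypes of 0.041, while the median of that SD was 0.27 over the members and 0.22 over all genes tested. Kng1, the precursor of bradykinin, measured 1411, 2055, 1668 and 1619 CPM in control mice and 1809, 1603, 1593 and 2187 CPM in Mc1r LKO mice. F11 measured 17.1, 31.7, 28.7 and 34.3 CPM in control mice and 26.8, 26.3, 25.3 and 40.8 CPM in Mc1r LKO mice, and mouse 182 was highest and mouse 154 lowest. Log2 fold changes were 0.022 for F12, 0.091 for Kng1, 0.095 for F11 and 0.056 for Klkb1, the plasma prekallikrein gene, with adjusted p from 0.935 to 0.977. All 4 were positive with all mice, and without mouse 182 they were 0.0066, -0.012, -0.092 and -0.16.

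Plg encodes plasminogen, the precursor of the enzyme that dissolves fibrin, and measured 1437, 1709.6, 1919.6 and 1691 CPM in control mice and 1595, 1588, 1529 and 2485 CPM in Mc1r LKO mice. The 3 Mc1r LKO mice other than 182 lay within the control range (log2 fold change 0.091 ± 0.17 (SE), adjusted p = 0.944), and without mouse 182 the log2 fold change was -0.10. Tfpi, the inhibitor of the tissue factor complex, measured 7.29 ± 1.11 CPM in control mice and 6.12 ± 2.001 CPM in Mc1r LKO mice (SD, n = 4 each) (log2 fold change -0.25, adjusted p = 0.903). It was lowest in mouse 182, at 3.32 CPM, as the sinusoidal endothelial markers were, and it gave -0.041 when that mouse was left out. The part of the endothelial markers in the values of Tfpi was not tested. Thbd, for thrombomodulin, the endothelial receptor that redirects thrombin, measured 4.36 ± 1.60 CPM in control mice and 4.74 ± 0.573 CPM in Mc1r LKO mice (SD, n = 4 each) (0.12, adjusted p = 0.955). Unlike Tfpi, Thbd was not low in mouse 182, which at 5.31 CPM was the highest of the Mc1r LKO mice.

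Further genes of the same systems were read from a list of 56, of which 55 were found and 44 were kept by the filter. Of the 44 tested, 19 were positive and 25 negative, with a median log2 fold change of -0.050. Called were 2 (4.55%), both lower, against 5.31% of all genes tested. Fcna, the gene of ficolin A, a lectin of liver macrophages that starts the lectin pathway, measured 26.6, 33.6, 27.9 and 26.6 CPM in control mice and 19.8, 20.1, 21.0 and 21.0 CPM in Mc1r LKO mice. Every Mc1r LKO mouse was below every control mouse (log2 fold change -0.48 ± 0.10 (SE), adjusted p = 0.734). The 8 Kupffer cell markers described above were all negative as well. Control mouse 159 was highest in Fcna and in the summed markers. Mouse 182, lowest in the summed markers, measured 21.0 CPM for Fcna, within the 19.8 to 21.0 CPM of the Mc1r LKO mice. The part of the markers in the values of Fcna was not tested. Procr, the endothelial protein C receptor, measured 1.40 ± 0.774 CPM in control mice and 0.684 ± 0.199 CPM in Mc1r LKO mice (SD, n = 4 each) (log2 fold change -0.995 ± 0.43 (SE), adjusted p = 0.735). Vkorc1, the reductase that recycles vitamin K, separated the groups upward, with 65.2 ± 4.85 CPM in control mice and 76.8 ± 3.22 CPM in Mc1r LKO mice (SD, n = 4 each), with an unadjusted p under 0.05 (adjusted p = 0.734), but its log2 fold change of 0.24 was under the limit. The genotypes did not overlap in 2 of the 44 (4.55%), Fcna and Vkorc1, against 4.16% of all genes tested. In edgeR's test 0 of the 44 passed after adjustment. In that test 3 had an unadjusted p under 0.05, against 6.72% of all genes tested. The DESeq2 Wald test called 3 with the fold limit, against 5.55% of all genes tested.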

How the data were processed

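Liver RNA of 4 control and 4 Mc1r LKO mice was sequenced. The authors trimmed the reads (Trim Galore 0.6.6), aligned them (STAR 2.7.6a) and deposited read pair counts for each gene, whole and not normalized, from featureCounts of Subread 2.0.1, counted with strand option 2 on Ensembl genes of GRCm38 per the file headers, where the methods write GRCh38. Strand was used, so antisense genes do not share counts. Totals were 10773151 to 24763375 per mouse.

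Genes were filtered with filterByExpr (minimum count 10, total 15), normalized by TMM and tested with edgeR 4.0.16 (glmQLFit, glmQLFTest, R 4.3.3) with Benjamini-Hochberg adjustment over 13400 genes. The filter, normalization and limits (p under 0.05, absolute log2 fold change of at least 0.25) follow the study's methods, which name an unadjusted p, whereas its results name an adjusted p, so both were applied. The SE was derived from the F statistic. CPM of genes tested are TMM-normalized. The test was checked on simulated data.

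Symbols matched 55141 of 55487 identifiers. Per-mouse values are given for members with p under 0.05, for the 10 highest levels per length and for members with a mouse far from its group, and further pathway genes are named where p was under 0.05. C1qc, Cfp and Cfd were given per mouse after their values were seen. The members and all gene lists were chosen with earlier results of these data known. Alternatives were DESeq2 1.42.0, limma-voom (3.58.1), other scalings and filters, no fold limit, and leaving out mice; leaving out mice for the count of genes without overlap was added after seeing the data.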

Additional observations from a re-analysis of the deposited data

Results flagged for a closer look

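Of 88 groups of 4 mice (44 genes in both genotypes), 16 held a mouse whose gap to the nearest of the other 3 was, as a share of the whole range, over Dixon's 95% critical value, which chance gives in about 1 of 20 groups. The 16 are not independent, since 14 of them are the same animal, LKO mouse 182. It measured 5744 CPM for Fga, 5143 CPM for Fgb and 4278 CPM for Fgg, while the other Mc1r LKO mice reached at most 3208, 2863 and 2300.4 CPM. In the terminal genes it measured 577 CPM for C8a, 117 CPM for C8b, 426 CPM for C8g and 594 CPM for C9. It was also far above the other Mc1r LKO mice in C3 (4292 CPM), Cfi (598 CPM), C4bp (686 CPM) and Plg (2485 CPM). In clotting factors it measured 75.1 CPM for F7, 462 CPM for F10 and 40.8 CPM for F11. In control mice, mouse 159 measured 1513 CPM for C4b, above 1247 to 1277 CPM in the other 3, and mouse 181 measured 223 CPM for F9, above 180.3 to 183 CPM.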

How the results depend on the processing

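With all 8 mice, each alternative to the test, the scaling, the filter and the fold limit called 1 member, C3ar1, at the unadjusted p and 0 at the adjusted p. Leaving out mice gave 0 to 4 members, with 0 without control mouse 193. The count was 4 (C3ar1, C4b, C8a and C9) without LKO mouse 182, also when control mouse 181 was left out with it. Of all genes tested, 4.46% were called without mouse 193, 6.81% without mouse 182 and 6.46% without both 181 and 182. At the adjusted p the count was 0 in each of these. The count of members whose mice did not overlap was 1 (C4b) in CPM scaled by library size alone, and 0 to 1 when each mouse was left out (C3ar1 without 181, F2 without 157, C4b without 182). Of the 13400 genes, 4.16% did not overlap with all mice and 9% did not without mouse 182. That share was not computed for the other settings. Of the further pathway genes 1 was called with at least 10 counts in every mouse, and 1 to 3 when mice were left out. Of 308 log2 fold changes of members under alternatives with all mice, 301 kept direction and call. The 7 that turned sign were Cfi (-0.0070), C4bp (-0.027), Masp2 (-0.0042), Clu (-0.043), F9 (-0.033) and F12 (-0.022) without normalization beyond library size and Clu (-0.0013) with upper quartile scaling. Leaving out mice turned the sign in 23 genes, none of them called with all mice, with log2 fold changes from -0.33 to 0.032 for C1ra, -0.14 to 0.070 for C2, -0.072 to 0.22 for C3, -0.11 to 0.65 for C5ar1, -0.32 to 0.031 for C6, -0.54 to 0.14 for C8a, -0.28 to 0.91 for C8b, -0.59 to 0.11 for C9, -0.10 to 0.13 for Cfi, -0.14 to 0.10 for C4bp, -0.0014 to 0.076 for Masp2, -0.048 to 0.086 for Clu, -0.16 to 0.13 for Cd55, -0.11 to 0.10 for F9, -0.092 to 0.22 for F11, -0.11 to 0.12 for F13b, -0.030 to 0.38 for Fgb, -0.045 to 0.35 for Fgg, -0.16 to 0.16 for Klkb1, -0.015 to 0.21 for Kng1, -0.10 to 0.17 for Plg, -0.078 to 0.21 for Proz and -0.075 to 0.41 for Thbd. The cause was not tested. No paired or blocked analysis was possible because the labels name no litter, cage or batch. With 4 mice per genotype and low counts in C5ar1 and C3ar1, small changes were not detectable.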
